A study of Mus musculus with 6 samples.

Results

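The genes described here are 10 genes of red cell formation and iron uptake, of 55450 genes in the count table: Tfrc, Hba-a1, Hba-a2, Hbb-bs, Hbb-bt, Car1, Car2, Klf1, Gata1 and Alas2. They were chosen by name, with earlier results of these data known, and each symbol matched 1 row of the table through the GENCODE vM21 annotation. The libraries were made from marrow of C57BL6/SJL mice, sorted as lineage-negative and Sca-1-positive, a gate meant for stem cells and their early descendants. Both groups were made in the same way: stem cells of the LSK/SLAM phenotype were transplanted into lethally irradiated recipients, and 2000 marrow cells per library were sorted 12 weeks later. In the endogenous group the cells expressed microRNA-125a (miR-125a) at its natural level, and in the overexpressed group miR-125a had been overexpressed in the transplanted stem cells. Titles of the endogenous libraries carry the letters EV, which the labels do not spell out. The labels describe no promoter or vector. They also do not say whether donor cells were separated from surviving host cells, or whether libraries came from separate recipients. The p-values below therefore reflect only how far these libraries differ, which can include technical variation.

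The labels name 3 libraries per group, of which 4 were analysed here (n = 2 per group). They are replicates 1 and 3 of the endogenous group, called endogenous 1 and endogenous 3 below, and replicates 2 and 3 of the overexpressed group, called overexpressed 2 and overexpressed 3. Where 4 values follow each other without names they stand in this order. Totals ran from 654126 to 737431 counts. Mitochondrially encoded genes took 4.14%, 4.22% and 6.29% of the counts in endogenous 1, endogenous 3 and overexpressed 2, and 0.558% in overexpressed 3. Ly6a, which encodes Sca-1 and should mark every sorted cell, was nearly absent, at 1, 0, 1 and 1 counts, and the progenitor receptor Kit stood at 4, 25, 9 and 5 counts. Odorant, vomeronasal and trace-amine receptor genes, which marrow cells are not known to use, served as a gauge of background. Of 1479 such genes, 95% had a mean density of at most 8.30 counts per kb of exon.

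Red cells arise from marrow progenitors that switch on the transcription factors GATA1 and KLF1, load iron through the transferrin receptor, make haem and fill with haemoglobin. Haemoglobin joins alpha chains, encoded by the paired genes Hba-a1 and Hba-a2, with beta chains, encoded by Hbb-bs and Hbb-bt. Carbonic anhydrases 1 and 2 interconvert carbon dioxide and bicarbonate, and the lineage-negative fraction is sorted to be free of mature red cells.

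The paired haemoglobin genes are nearly identical in their coding parts, so the split of counts between the copies is uncertain while their sum is less so. Hba-a1 (chr11:32283511-32284465) and Hba-a2 (chr11:32296489-32297298) lie 12.0 kb apart on the plus strand of mm10. Their coding sequences of 429 bases differed at 1 base, coding position 381 in exon 3, and encoded the same 142 residues. Hbb-bs (chr7:103826534-103828096) and Hbb-bt (chr7:103812524-103813996) lie 12.5 kb apart on the minus strand. Their coding sequences of 444 bases differed at 1 base, position 417 in exon 3, and encoded the same 147 residues. The stretches around these bases are shown because no other coding base separates a read of one copy from a read of its partner. They are GENCODE vM21 transcript sequence, 5′ to 3′, with the differing base in capitals, at chr11:32284323-32284363, chr11:32297140-32297180, chr7:103826672-103826712 and chr7:103812663-103812703 in that order.
Hba-a1: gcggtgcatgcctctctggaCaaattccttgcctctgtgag
Hba-a2: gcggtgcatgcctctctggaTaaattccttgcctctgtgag
Hbb-bs: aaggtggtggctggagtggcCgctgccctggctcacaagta
Hbb-bt: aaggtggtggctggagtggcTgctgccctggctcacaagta
Over the whole transcripts, untranslated parts included, 67.5% of the 50-base windows of Hba-a1 also occurred in Hba-a2, and 86.9% of those of Hba-a2 occurred in Hba-a1. For the beta pair, 65.8% of the windows of Hbb-bs occurred in Hbb-bt and 58.3% of those of Hbb-bt in Hbb-bs.

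Tfrc, the transferrin receptor (chr16:32608920-32632794), takes up transferrin-bound iron in erythroid precursors and in dividing cells of other lineages. It had 299 and 655 counts in endogenous 1 and endogenous 3, and 44 and 36 in overexpressed 2 and overexpressed 3, or 457 and 919 against 59.7 and 50.3 CPM, counts scaled to a common library total. Both endogenous libraries were thus above both overexpressed ones. In the overexpressed libraries its counts, over 6185 bases of exon, fell below 8.30 counts per kb, the mark set by the receptor genes. The fitted log2 fold, overexpressed over endogenous, was -3.38 ± 0.79 (SE, n = 2 per group), with an adjusted p of 0.845 by edgeR's quasi-likelihood F test with Benjamini-Hochberg adjustment over all genes tested. In bulk libraries, fewer cells of a type and less RNA per cell cannot be told apart.

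By that test 0 of 10808 genes were called, 0% of those tested, so 0 of the 6 members that passed the count filter were called. Over all genes tested, edgeR gave 566 an unadjusted p below 0.05, and of the 6 members Tfrc alone was among them (p = 0.00532 by the edgeR fit, not a permutation test). Of the 6, Tfrc alone had both endogenous libraries above both overexpressed ones, as had 18% of the genes tested. DESeq2 on the same genes called Tfrc (log2 fold -3.36 ± 0.67, adjusted p = 0.000149) and none of the 5 other members tested, where 0.87% of genes were called lower. In limma-voom with quality weights Tfrc had a log2 fold of -3.32 ± 0.53, and 0 genes were called. Leaving out any 1 library kept Tfrc lower with overexpression, with log2 folds between -3.62 and -2.93. Of the list of cycling-cell genes, 9 were tested, 7 with lower and 2 with higher values, and the list summed to 1153 and 3301 CPM in the endogenous and 392 and 312 CPM in the overexpressed libraries. None of its 12 genes was at 0 in every library, and 6 of the 12 lay above the mark of the receptor genes. In endogenous 3 the sum came mainly from Rrm1 and Rrm2, subunits of ribonucleotide reductase, with 1504 and 516 counts there and at most 10 and 4 elsewhere. Without this pair, left out after its values were seen, the list summed to 1137 and 465 against 382 and 293 CPM. Its genes peaked in different libraries: Cdk1 had 327 and 27 against 4 and 4 counts, Ube2c 157 and 35 against 5 and 3, and Mki67 12 and 50 against 176 and 3. Its part in the Tfrc values was not tested.

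**Figure D1:**
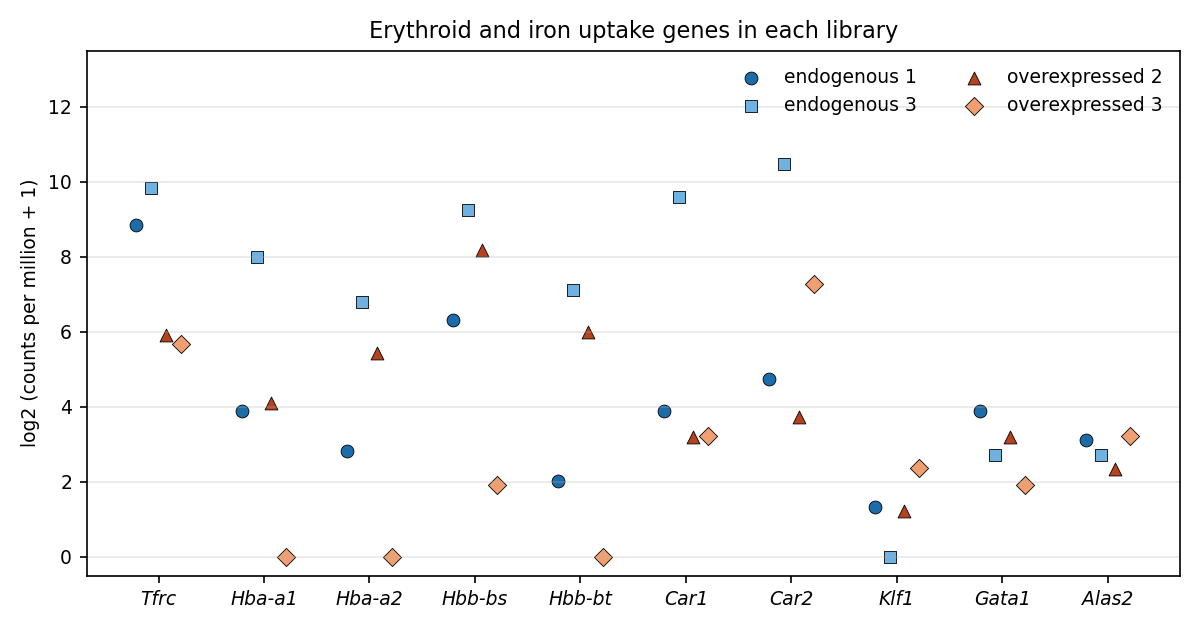
Level of each of the 10 genes in each library, as log2 (CPM + 1), with 1 point per library and no error bar. Tfrc separates the groups, the haemoglobin genes and the carbonic anhydrases peak in endogenous 3, and Klf1, Gata1 and Alas2 stay low in all 4 libraries.

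Haemoglobin counts differed widely between libraries and did not follow the groups. The 4 genes summed to 67 counts in endogenous 1, 789 in endogenous 3, 303 in overexpressed 2 and 2 in overexpressed 3, or 102, 1108, 411 and 2.79 CPM. The groups overlapped, with the highest library in the endogenous and the lowest in the overexpressed group. Mean log2 (CPM + 1) was 8.40 in the endogenous and 5.30 in the overexpressed libraries, a difference of -3.10 against a within-group SD of 3.79 (n = 2 per group). The difference was smaller than that spread. The exact two-sided permutation test gave p = 0.667, where the smallest p that 2 against 2 allows is 0.333. Without overexpressed 3 the difference was 0.28.

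**Figure D2:**
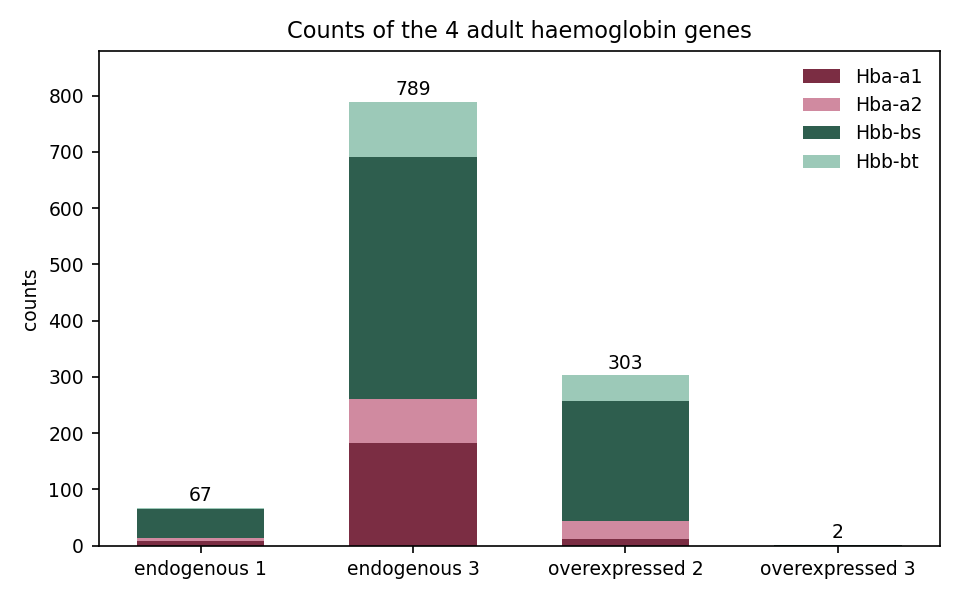
Raw counts of the 4 adult haemoglobin genes in each library, stacked from 0, with the sum above each bar. Endogenous 3 held 789 counts and overexpressed 3 held 2, so the libraries within each group differ more than the groups do.

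Among the alpha genes, Hba-a1 had 9 and 182 counts in the endogenous and 12 and 0 in the overexpressed libraries. Its partner Hba-a2 had 4 and 79 against 31 and 0. Both were highest in endogenous 3, and neither separated the groups. Alpha counts as a whole were 0 in overexpressed 3, where a count of 0 allows up to 3 counts, or 4.19 CPM. The log2 folds were -3.65 ± 1.75 for Hba-a1 and -1.10 ± 1.63 for Hba-a2 (SE), with adjusted p of 0.845 and 0.971 by the edgeR test. Without endogenous 3 the log2 fold of Hba-a1 was -0.56 and that of Hba-a2 turned to 1.95.

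The copies did not share the alpha counts in the same way in each library. Hba-a1 held 69.7% of the alpha counts in endogenous 3 (182 of 261, 95% exact binomial interval 63.8 to 75.2) and 69.2% in endogenous 1 (9 of 13, 38.6 to 90.9). In overexpressed 2 it held 27.9% (12 of 43, 15.3 to 43.7), below the interval of endogenous 3. These intervals treat each count as an independent draw and leave out variation between libraries. Reads without molecular identifiers are not independent molecules, and many are shared by both copies, so the intervals can be too narrow. With 2 usable endogenous libraries and 1 overexpressed library, this difference in split has no test over libraries. Summed to 1 row, the alpha pair had a log2 fold of -2.32 ± 1.93 and an adjusted p of 0.912 by the edgeR test.

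Among the beta genes, Hbb-bs was the most abundant of the 10 per length over the libraries, with a mean of 227 counts per kb. It had 52 and 430 counts in the endogenous and 214 and 2 in the overexpressed libraries. Hbb-bt had 2 and 98 against 46 and 0. For both, endogenous 3 and overexpressed 2 were high and endogenous 1 and overexpressed 3 low, so that each group held a high and a low library. The log2 folds were -0.82 ± 1.79 for Hbb-bs and -0.78 ± 1.85 for Hbb-bt, with adjusted p of 0.978 and 0.980 by the edgeR test. Hbb-bs held 81.4% of the beta counts in endogenous 3 (430 of 528, 95% exact interval 77.9 to 84.7) and 82.3% in overexpressed 2 (214 of 260, 77.1 to 86.8), so the intervals overlapped in the libraries with most counts. In endogenous 1 it held 96.3% (52 of 54, 87.2 to 99.5), above both. Alpha counts were 33.1% of all haemoglobin counts in endogenous 3 (29.8 to 36.5) and 14.2% in overexpressed 2 (10.5 to 18.6). In endogenous 1 they were 19.4% (13 of 67, 10.8 to 30.9), an interval that overlapped that of each. The limits given for the alpha intervals hold for these too, and no difference in share was tested over libraries.

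Promoters of the haemoglobin genes are shown by 1 example. The 4 genes took the same order over the libraries in CPM, with endogenous 3 highest, then overexpressed 2, endogenous 1 and overexpressed 3. Their promoters differ in motifs, so the example does not stand for all of them. The 120 bases before the annotated start of Hba-a2, at chr11:32296369-32296488 of GRCm38.p6 on the plus strand, are RefSeq sequence, 5′ to 3′, with a CCAAT box and a CACCC box (CCACCC, the kind of sequence KLF1 binds) in capitals.
Hba-a2: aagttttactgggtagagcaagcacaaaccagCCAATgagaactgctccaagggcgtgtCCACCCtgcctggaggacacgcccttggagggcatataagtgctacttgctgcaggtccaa
Promoter windows of 300 bases (250 before to 50 after the RefSeq start) were found for 8 of the 10 genes, with 9 windows in all. No window was matched for Car1 and Car2. The windows of Tfrc overlap and were counted separately. On either strand, CCACCC occurred in 8 of the 9 windows and in 31.5% of all 32851 windows, CCAAT in 6 and 37.4%, and AGATAA or TGATAA, forms of the GATA motif, in 5 and 18.6%. TATAAA, searched on the gene's strand, occurred in 1 window, that of Hbb-bt, and in 8.3% of all. Hbb-bs had no CCACCC in its window, and Hbb-bt had 3 matches of CCAAT and no GATA motif. These motifs share no bases within the stretch shown, and a match is a description of the letters and not of binding.

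The carbonic anhydrase genes drew most of their counts from endogenous 3. Car1 (chr3:14766216-14808368) had 9 and 550 counts in the endogenous and 6 and 6 in the overexpressed libraries. Endogenous 3 alone was high, and the other endogenous library stood 3 counts above the overexpressed ones. Car2 (chr3:14886273-14900770), 77.9 kb away, had 17 and 1021 against 9 and 111 counts, and here the groups overlapped. Of the counts scaled by effective library size, 95.5% for Car1 and 86.5% for Car2 came from endogenous 3. Car2 had a log2 fold of -2.91 ± 1.86 and an adjusted p of 0.861 by the edgeR test, and its log2 fold turned to 1.69 without endogenous 3. Car1 did not pass the count filter, which asks for enough counts in 2 libraries. The other 14 carbonic anhydrase genes together summed to 79, 85, 85 and 77 counts. Of these 14, 2 were tested, Car5b with a log2 fold of -0.32 ± 0.46 and Car12 with 0.06 ± 0.49 (adjusted p of 0.969 and 0.996 by edgeR). None of the 14 had a mean density above the 95% mark of the receptor genes.

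The regulators and the haem enzyme of the erythroid programme were at background. Klf1 (chr8:84901928-84905291), the factor that activates the adult beta-globin gene, had 1 and 0 counts in the endogenous and 1 and 3 in the overexpressed libraries. Gata1 (chrX:7959260-7978071), the master regulator of red cell genes, had 9 and 4 against 6 and 2. Alas2 (chrX:150547375-150570638), the erythroid form of the first enzyme of haem synthesis, had 5 and 4 against 3 and 6. Their mean densities were 0.817, 2.15 and 1.87 counts per kb, which exceeded those of 20.1%, 56.5% and 48.0% of the receptor genes. Endogenous 3 was the highest library for none of these 3 genes. The 7 other members lay above the 95% mark of the receptor genes, with mean densities from 41.8 counts per kb for Tfrc to 227 for Hbb-bs. These means are over all 4 libraries, so 1 high library can carry a gene past the mark. Tfrc fell below 8.30 counts per kb in both overexpressed libraries, and Car1 in every library but endogenous 3. Hba-a1, Hba-a2 and Hbb-bt had 0 counts in overexpressed 3. Alas2 shares 311 of its 2403 bases of exon with Apex2 on the other strand, which had 20, 20, 12 and 20 counts. Reads from the shared bases alone cannot be assigned to either gene without knowledge of strand. Alas2 also shares 61 bases with the microRNA gene Mir3620, which had 0 counts in every library. The 3 genes did not pass the count filter, so that 6 of the 10 were tested and their folds are not those of the whole set.

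Calls on the members depended on the fit. With no low-count filter, edgeR's quasi-likelihood test called Car1 (log2 fold -5.15 ± 1.06, adjusted p = 0.000271) and Hba-a1 (-3.57 ± 0.85, adjusted p = 0.00286) lower with overexpression, 2 of 10 members, where 1.07% of 46089 genes were called lower. The authors' deposited table lists 8 of the 10 genes. In the authors' deposited table, Car1 (log2 fold 5.18, FDR = 0.00592) and Hba-a1 (3.60, FDR = 0.0166) had an FDR under 0.05, as did 1.46% of its 17039 genes in that direction. The sign there is endogenous over overexpressed, as read from the counts. Tfrc had a log2 fold of 3.36 and an FDR of 0.126 in the authors' deposited table. Of the counts of Car1 and Hba-a1, scaled by effective library size, 95.5% and 87.2% came from endogenous 3. Leaving that library out, Car1 did not pass the filter and Hba-a1 had a log2 fold of -0.56 ± 1.75.

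**Figure D3:**
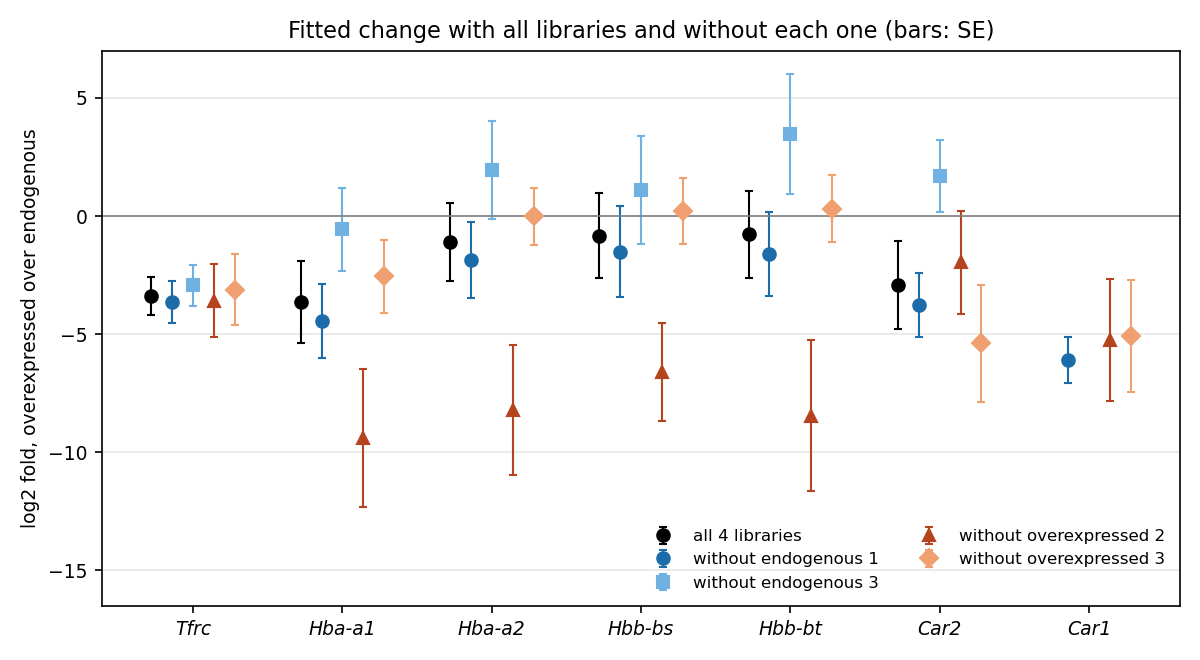
Log2 fold of each tested gene, overexpressed over endogenous, fitted by edgeR with all 4 libraries and without each library, with bars of 1 SE. Tfrc stays between -3.62 and -2.93, while Hba-a2, Hbb-bs, Hbb-bt and Car2 change sign without endogenous 3. Car1 has points only where it passed the count filter.

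The direction of the set depended on endogenous 3. All 6 tested members had negative fitted folds, with a median log2 fold of -2.00 beside -0.01 over all genes tested. The median was 1.40 over 6 members without endogenous 3, -3.62 over 7 without endogenous 1 and -2.56 over 7 without overexpressed 3. Without overexpressed 2 it was -6.61 over 7. There, Hba-a1, Hba-a2 and Hbb-bt had 0 counts in the remaining overexpressed library. With 3 counts in that library as floor, they were at least 28.3-fold, 12.3-fold and 14.7-fold below the mean of the endogenous libraries. Endogenous 3 supplied most of that mean, so these bounds do not hold against endogenous 1 alone. They also leave out variation between libraries. With these genes at their bound the median was -3.88.

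Each of the 7 members with at least 100 counts over the libraries was highest in endogenous 3 after scaling. Of all 4054 genes with that many counts, 21.2% were highest in endogenous 3. Car1, Hba-a1, Hba-a2 and Hbb-bt reached 100 counts only with those of endogenous 3, so the limit itself favours a peak there. Klf1, Gata1 and Alas2, highest in other libraries, did not reach it. The haemoglobin genes also took the same order over the libraries, so the members are not separate observations. The share of a gene's scaled counts that came from its highest library ran from 55.6% for Hbb-bs to 95.5% for Car1, with a median of 63.6% beside 37.5% over the 4054 genes. In 3 of the 7 members, Car1, Car2 and Hba-a1, that share was over 75%, as in 11.3% of the 4054 genes. Of these 7 members, 2 had both endogenous libraries above both overexpressed ones, Tfrc and Car1, as did 14.8% of the 4054 genes.

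Of the other genes of the red cell programme, 5 had over 75% of their scaled counts in endogenous 3: Uros, Urod, Rhd, Cd24a and Hemgn. They were picked after their values were seen, by the same limits of 100 counts and 75%. Of the 31 genes of the pathway lists with 100 counts, 9 passed. Of all 4054 genes with 100 counts, 460 (11.3%) passed, 154 of them with endogenous 3 highest. All 5 genes reached 100 counts only with those of endogenous 3, so the limits favour this pattern. Uros and Urod, which encode successive enzymes of haem synthesis, had 452 and 124 counts in endogenous 3 against at most 9 and 3 in any other library. Rhd, the Rh blood group protein of the red cell membrane, had 454 counts there and 0, 0 and 2 elsewhere. The surface glycoprotein gene Cd24a had 371 counts there against 3, 10 and 4, and Hemgn, a nuclear protein of blood progenitors, had 87 against 6, 5 and 6. The other 4 peaked elsewhere. Alas1, the general form of the first haem enzyme, had 161 of its 199 counts in endogenous 1, and the kinase Lyn 300 of 345. Nfe2, a factor that acts at the globin locus, had 82 of 107 counts in overexpressed 2, and the phosphatase Ptpn6 had 137 of 185.

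**Figure D4:**
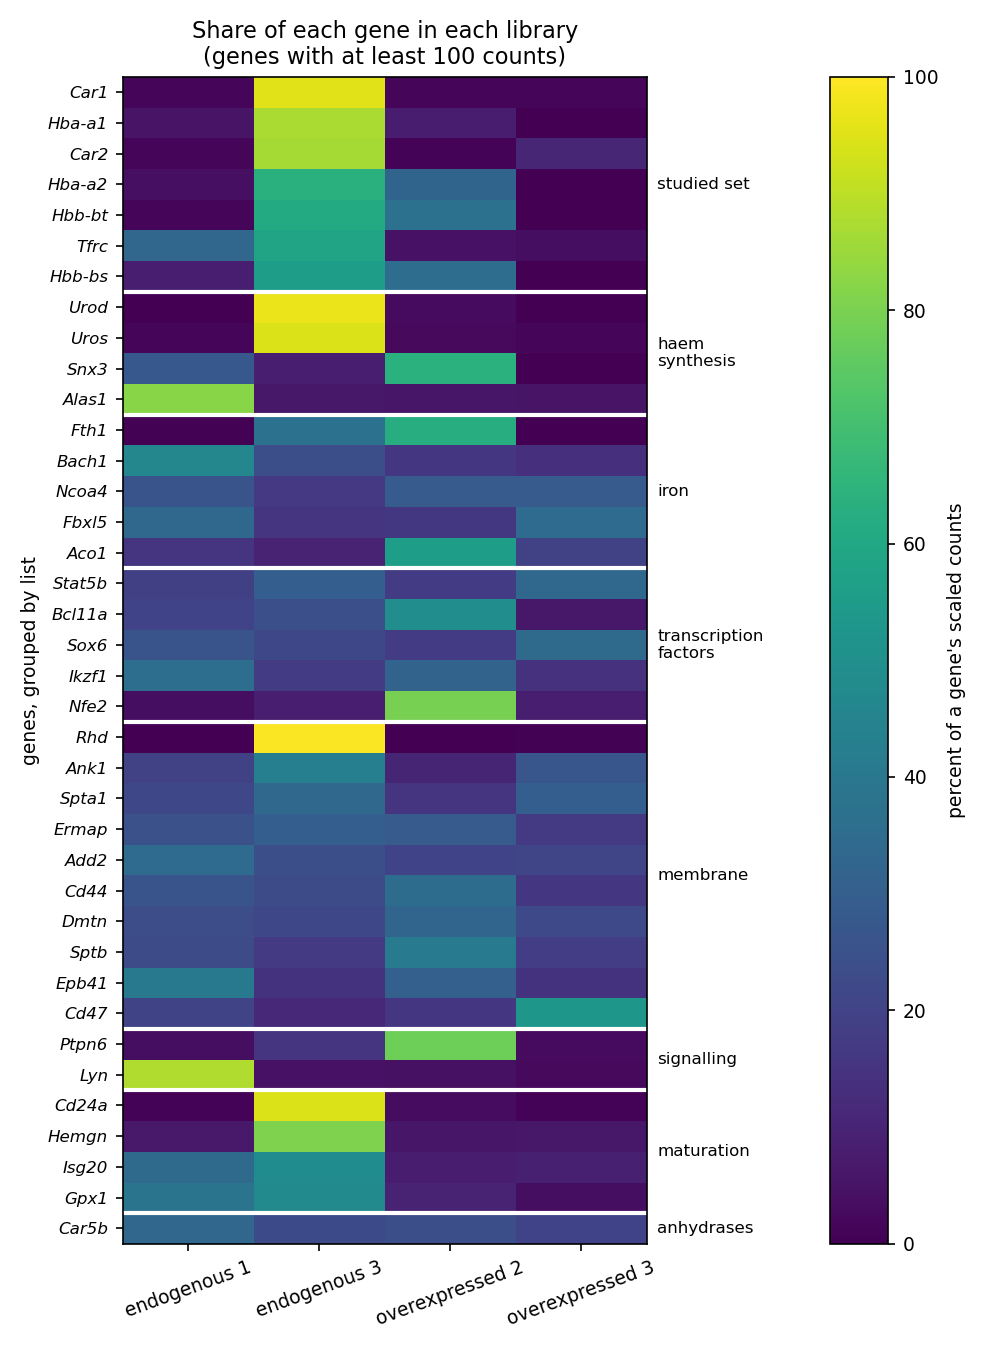
Share of each gene's scaled counts in each of the 4 libraries, in percent, for the 7 members and the 31 pathway genes with at least 100 counts, grouped by list. The members, Urod, Uros, Rhd, Cd24a and Hemgn are brightest in endogenous 3, while most membrane, iron and transcription factor genes are spread over the libraries.

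The remaining genes of the pathway showed no common direction, and by the edgeR test 0 were called in any list. The haem synthesis list had 14 genes, of which 4 were tested, 1 higher and 3 lower with overexpression in value (median log2 fold -0.61). In it, Alas1 had a log2 fold of -2.99 ± 1.20 and Fech, which inserts the iron, one of -0.99 ± 0.55. In the list of iron uptake, storage and sensing, 14 of 22 genes were tested, 8 higher and 6 lower (median 0.24). Its smallest p-values were those of the iron chaperone Pcbp1 (11 and 43 against 5 and 3 counts, -2.52 ± 0.74) and the haem-sensing repressor Bach1 (61 and 39 against 20 and 20, -1.23 ± 0.55). Of its 22 genes 6 lay above the mark, Pcbp1 among them and Bach1 not. Fth1, the ferritin heavy chain that stores iron, is named after its values were seen, since like haemoglobin it was high in endogenous 3 and overexpressed 2 (1 and 106 against 137 and 0 counts).

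Of 24 erythroid transcription factors 13 were tested, 9 higher and 4 lower (median 0.28), with Nfe2 at 2.83 ± 1.10 and Runx1 at -0.78 ± 0.53. Of 24 membrane and blood group genes 12 were tested, 5 higher and 7 lower (median -0.23). There the smallest p-values were those of the "do not eat me" signal Cd47 (1.12 ± 0.88) and of ankyrin, Ank1, which ties the membrane to its skeleton (-0.74 ± 0.68). Of these membrane and blood group genes 4 lay above the mark, Cd47 among them and Ank1 not. Of 15 matched genes of erythropoietin and stem cell factor signalling 5 were tested, 3 higher and 2 lower (median 0.01), led by Lyn (-3.71 ± 1.40) and Ptpn6 (2.06 ± 1.42). Lyn and Ptpn6 were the only genes of that list above the mark. In the list of globin chaperone, antioxidant and maturation genes 5 of 23 matched genes were tested and all 5 were lower in value (median -1.04). Of the 23 matched genes 5 lay above the mark, Gpx1 and Isg20 among them. The antioxidant enzyme gene Gpx1 stood at 49 and 75 counts in the endogenous and 12 and 5 in the overexpressed libraries (log2 fold -2.67 ± 0.64, adjusted p = 0.845 by edgeR), and the exonuclease gene Isg20 had 55 and 96 against 12 and 15 (-2.32 ± 0.55, adjusted p = 0.845). In both, as in Tfrc, the endogenous libraries lay above the overexpressed ones, as they did in 18% of all genes tested. Gpx1 and Isg20 are named for the smallest p-values of the list, a choice that favours such a separation.

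Embryonic and other globins had counts near 0. Per kb of exon, Hbb-bh0 alone of them lay above the 95% mark of the receptor genes, at 13.6 counts per kb. Hbb-bh2 had 0, 5, 1 and 3 counts, Hbb-y had 3, 4, 2 and 3, and Hbb-bh1 had 1, 1, 1 and 2. Hbb-bh0 had 2, 2, 2 and 1, Hbq1b had 2, 3, 0 and 2, Hbq1a had 1, 1, 0 and 1, and Hba-x had 0, 0, 0 and 1. The summed counts of these 7 genes were 9, 16, 6 and 13, with no rise in endogenous 3 or overexpressed 2 like that of the adult genes.

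Markers of other cells were measured beside the haemoglobin values. The list of granulocyte and monocyte genes summed to 4897 and 6295 counts in the endogenous and 11879 and 7961 in the overexpressed libraries, with 9 of 10 tested genes higher in value and all 15 genes above 0 in every library. Of its 7 genes with at least 100 counts, 5 were highest in overexpressed 2 and 2 in endogenous 3. The lactoferrin gene Ltf, the most abundant, had 4538 and 3735 against 8490 and 7413 counts, and the calprotectin gene S100a8 had 36 and 1130 against 739 and 205. Megakaryocyte genes summed to 329 and 244 against 391 and 281 CPM over 11 genes. B-lineage genes summed to 712 and 309 against 245 and 448 CPM, T and NK genes to 79.5 and 122 against 336 and 83.8, stem and early progenitor genes to 630 and 605 against 990 and 594, and macrophage genes to 422 and 345 against 270 and 538. Of all these lists, only the macrophage list held a gene at 0 in every library, Hmox1. A count above 0 says little, since the receptor genes had a median of 1.93 counts per kb. Of the 15 granulocyte and monocyte genes, 9 lay above the mark of the receptor genes. So did 3 of 10 B-lineage, 1 of 10 T and NK, and 1 of 11 megakaryocyte genes. For stem and early progenitor genes it was 3 of 13, and for macrophage genes 2 of 10. The gene Nkg7 had 208 of the 248 T and NK counts in overexpressed 2. The part of these lists in the erythroid values was not tested.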

How the data were processed

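Per the submitters' processing notes, FastQC 0.11.8, STAR and edgeR 3.24.3 were used with the mm10 build. Not given in the sources used here are the read counter, the annotation it used and whether it used strand. What the authors deposited are whole-number counts, 1 value per gene and library, not normalized. The authors' deposited table gives log2 fold changes and mean log2 CPM, p-values and FDR values, a likelihood ratio and a signed score, per the file headers. Of the 10808 genes tested here that it also lists, 477 had a p under 0.01 in it. Of these 477, 0 had the sign of the folds computed here, which showed its direction. All 55450 gene IDs matched GENCODE vM21, which gave symbols, positions and exon lengths.

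The members and gene lists were chosen with earlier results of these data known. Count headers matched the sample numbers in the labels. The test was edgeR 4.0.16 (R 4.3.3): genes were filtered with filterByExpr on the groups, scaled with TMM and fitted together by quasi-likelihood, with dispersions as in versions before 4. Benjamini-Hochberg adjusted p under 0.05 was a call, and an SE was obtained by dividing the size of the log2 fold by the root of F. The likelihood ratio tests were added after the data were seen. DESeq2 1.42.0 and limma 3.58.1 served as alternatives. Code was tested on simulated data. CPM uses total counts, and scaled counts use TMM effective library sizes (535935 to 694412). Named pathway genes are the 2 tested genes of each list with the smallest p, and every globin.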

Additional observations from a re-analysis of the deposited data

How the results depend on the processing

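The count of called genes depended on the fit: 0 by the edgeR quasi-likelihood test, 822 without the low-count filter, 151 by DESeq2, and 84 and 38 by likelihood ratio tests with and without the filter. Members called were 0, 2, 1, 0 and 0 in that order. Leaving out each library called 0 genes (from 577 to 1232 with an unadjusted p under 0.05) and 0 members. The median log2 fold of tested members ran from -6.61 to 1.40 without 1 library, with 1.40 without endogenous 3. The -6.61, without overexpressed 2, is the fold of Hbb-bs, which had 2 counts in the overexpressed library left. Its place as the median rests on genes at 0 there, and the median is -3.88 with these at their bound. Of 74 values of single members under other settings, 66 kept their direction and side of the threshold, 2 gained a call, namely Tfrc by DESeq2 (-3.36) and Hba-a1 without the filter (-3.57), and 6 reversed. The reversals came without endogenous 3 (Hba-a2 1.95, Hbb-bs 1.10, Hbb-bt 3.48 and Car2 1.69) and without overexpressed 3 (Hbb-bs 0.23 and Hbb-bt 0.31). Without 1 library the folds ran from -8.21 to 1.95 for Hba-a2, -6.61 to 1.10 for Hbb-bs, -8.46 to 3.48 for Hbb-bt and -5.39 to 1.69 for Car2. The -8.21 and -8.46 are fits against a library at 0 and no estimates of size. Against the endogenous mean, mostly from endogenous 3, the counts bound these folds only at -3.62 for Hba-a2 and -3.88 for Hbb-bt or lower. Summed haemoglobin differed by -6.48 to 0.28 without 1 library, with 0.28 without overexpressed 3, and by -2.91 with effective library sizes. With 1 library left in a group, that library is assumed to vary like the other group. Scaling by total count alone shifted the median of all genes to -0.29 and that of members to -2.41. The causes were not tested. No paired analysis was possible because the groups share only replicate number 3.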
